A study of Homo sapiens with 4 samples.

Results

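The anti-apoptotic BCL2 family was followed through BCL2, BCL2L1, BCL2L2 and MCL1, the survival genes of small cell lung cancer, on arrays of cells depleted of TTF-1. Members were all probe sets whose platform annotation gave 1 of these 4 symbols as the only symbol, which found 16 probe sets of 54613 (4 for BCL2, 4 for BCL2L1, 2 for BCL2L2 and 6 for MCL1). These 4 genes were part of the 19775 genes with a probe set of their own. Total RNA came from NCI-H209 and Lu139, 2 human small cell lung cancer lines, which received, by electroporation, control siRNA (siNTC) or siTTF-1, which targets the NKX2-1 product TTF-1, a homeodomain factor of lung and thyroid. Each combination of line and siRNA was measured on 1 Affymetrix array, 4 in all, so nothing is replicated inside a line, and the siRNA effect is replicated only by having 2 lines. No label states separate cultures. The p-values below weigh an effect against how far the siRNA change differed between the lines, moderated by that of other probe sets. That spread may be technical. The sources used here give neither the siRNA sequences nor the time from electroporation to harvest.

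BCL2 proteins decide whether the outer mitochondrial membrane is opened during apoptosis. The anti-apoptotic members hold the effectors BAX and BAK in check and capture BH3-only proteins such as BIM, and release of cytochrome c follows when they are outweighed. BCL2 is abundant in most small cell lung cancers, and BCL-XL (from BCL2L1) and MCL1 are alternative guardians that limit the effect of BCL2 inhibitors. MCL1 differs from the others in its very short life as a protein and as an mRNA. Transcript levels, the quantity measured here, therefore do not give the protein levels.

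Array medians lay between 48.3 and 57.6 intensity units. An expression limit was set at the 40th percentile of all probe sets, an intensity of 36.9, and 16 of 16 member probe sets exceeded it in both lines. As background, 29032 of all 54613 probe sets did so. The targeted transcript, NKX2-1, was lower on both of its probe sets, where the brighter one had 40.7% (NCI-H209) and 59.1% (Lu139) of the control intensity. The dimmer one, 210673_x_at, had 64.6% (NCI-H209) and 55.3% (Lu139), so which line had the larger decrease differed between the probe sets. Of the neuroendocrine markers looked up, 5 of 5 with a probe set (INSM1, CHGA, SYP, NCAM1 and DLL3) exceeded the limit in both lines. The leukocyte gene PTPRC, the fibroblast gene COL1A2 and the endothelial gene CDH5 stayed under it, although CD3E, COL1A1, DCN, PECAM1 and VWF exceeded it on their brightest probe sets.

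None of the 16 member probe sets passed the test of the siTTF-1 effect across both lines. The test was limma with a term for line, with Benjamini-Hochberg adjustment over 32768 probe sets, and it called 0 of them at an adjusted p under 0.05 (0% as background). The smallest adjusted p of a member was 0.272 in limma, and it was that of the BCL2 probe set 203685_at. At an unadjusted p under 0.05 limma gave 2 of 16 member probe sets, 12.5%, against 15.2% of all probe sets tested, so the members' share did not exceed the background. Within a line, 0 of 16 member probe sets reached a 1.5-fold change in either direction, with 18.7 added to each intensity. The background there was 3.51% of probe sets lower and 1.12% higher by at least 1.5-fold in NCI-H209, and 1.61% lower and 0.160% higher in Lu139. A fold change compares siTTF-1 with siNTC after adding 18.7 to each intensity and taking log2, which makes changes of dim probe sets look smaller. Without the 18.7, BCL2L1 215037_s_at had 153% of its control intensity in NCI-H209, above 1.5-fold.

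The members did not move as 1 block. In both lines, 3 of the 16 probe sets were lower after siTTF-1, against a background of 28.3%, and all 3 were BCL2 probe sets. A further 4 were higher in both lines (background 35.5%), 1 from each gene, and 8 had opposite signs in the lines (background 32.6%). The last, the MCL1 probe set 227175_at, read exactly the same intensity on both Lu139 arrays. These signs include values near 0 that turn with the scaling. The MCL1 probe set among the 4, 214057_at, had 0.02 in Lu139 on the log2 scale and -0.01 with arrays centred on their medians. In Lu139, 227175_at became -0.03 with centred arrays and -0.01 after quantile normalization, and BCL2L1 231228_at went from -0.01 to 0.03 after quantile normalization. Over the 16 probe sets the log2 fold change had a median of 0.13 (NCI-H209) and -0.04 (Lu139), beside 0.01 and 0.02 over all probe sets tested. Probe sets of 1 gene share its RNA and are not replicates, so these counts describe the arrays.

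**Figure D1:**
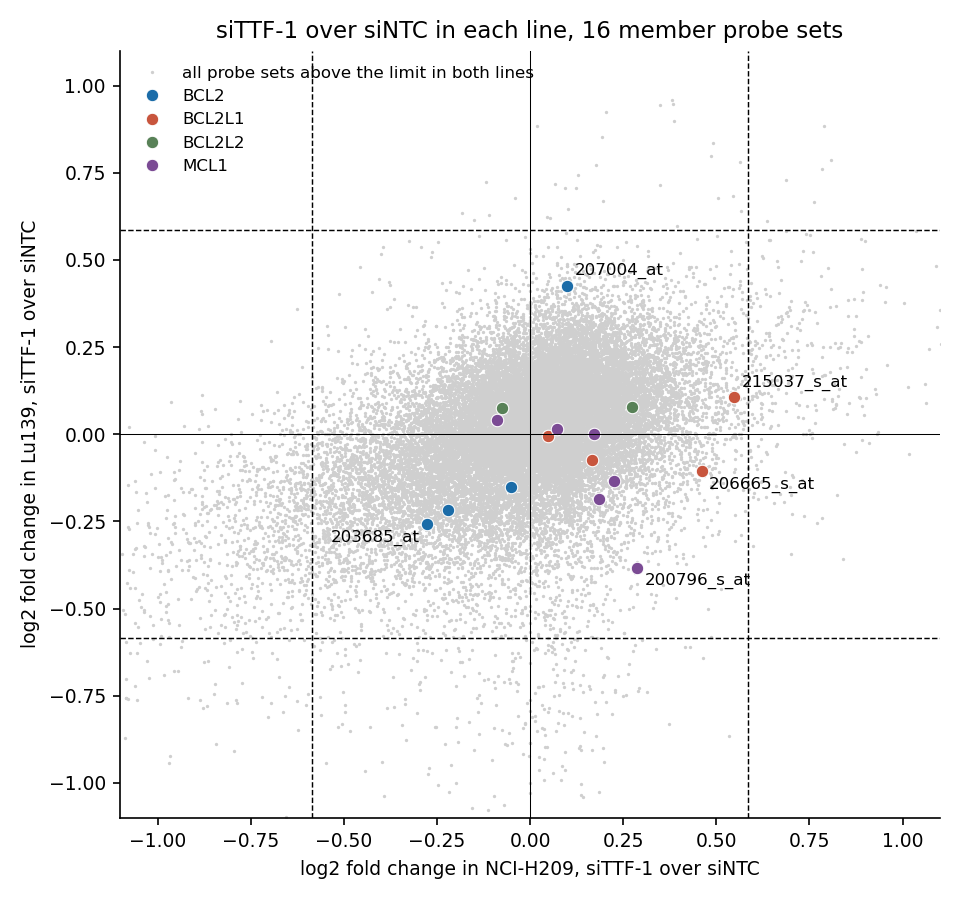
Log2 fold change of siTTF-1 over siNTC in NCI-H209 (horizontal) against Lu139 (vertical) for the 16 member probe sets, coloured by gene, over all probe sets above the expression limit in both lines (grey; the axes stop short of the most extreme grey points). Dashed lines mark 1.5-fold, which 0 of the 16 passed, and 3 BCL2 probe sets lie at the lower left of the origin.

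BCL2 is the founding member of the family and the target of the BH3 mimetic venetoclax. Its brightest probe set, 203685_at, had intensities of 804 on the control array and 660 on the siTTF-1 array of NCI-H209, and of 1797 and 1501 on those of Lu139. The siTTF-1 array was the lower of the pair in each line, at 82.2% and 83.5% of control, and the Lu139 arrays lay above both NCI-H209 arrays. The log2 fold changes of -0.28 and -0.26 gave a mean of -0.27 (SD 0.014, n = 2 lines), with a limma 95% confidence interval of -0.49 to -0.04 and a limma adjusted p of 0.272. Of all probe sets above the limit, 13.4% had a lower log2 fold change than 203685_at in NCI-H209 and 10.0% in Lu139. Among probe sets within 0.5 log2 units of its level, the shares were 20.0% in NCI-H209 and 6.72% in Lu139. Decreases of this size were therefore common in NCI-H209 and less so in Lu139.

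The second BCL2 probe set by level, 203684_s_at, had nearly the same relative decrease. It went from 150 to 126 in NCI-H209 and from 147 to 124 in Lu139, which is 84.0% and 84.3% of control. Its log2 fold change was -0.22 in each line (mean -0.22, SD 0.0032, n = 2 lines; limma adjusted p = 0.362, 95% confidence interval -0.46 to 0.02). So both of these probe sets put the siTTF-1 array under its control by a similar proportion in each line, without passing the test.

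The platform annotation pairs the other BCL2 probe sets, 207004_at and 207005_s_at, with the reference of the beta transcript of BCL2, and 203685_at with that of the alpha transcript, which encodes the membrane-anchored protein. The sources used here do not give the position of the probes, and a suffix _s_at marks probes that can read several transcripts. On 207004_at the intensity went from 94.7 to 103 in NCI-H209 and from 91.9 to 130 in Lu139, higher after siTTF-1 in both lines and opposite to the other 3. Its value in Lu139, a log2 fold change of 0.43, was above that of 99.2% of probe sets over the limit, and above that of 99.1% of the 7595 probe sets within 0.5 log2 units of its level. Across lines its limma adjusted p was 0.343 (mean 0.26, SD 0.23, n = 2 lines; 95% confidence interval -0.01 to 0.54). The dimmest, 207005_s_at, went from 52.2 to 49.7 in NCI-H209 and from 70.0 to 61.1 in Lu139, with log2 fold changes of -0.05 and -0.15. The mean of all 4 BCL2 probe sets had log2 fold changes of -0.11 and -0.05, and a limma adjusted p of 0.602 over genes.

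**Figure D2:**
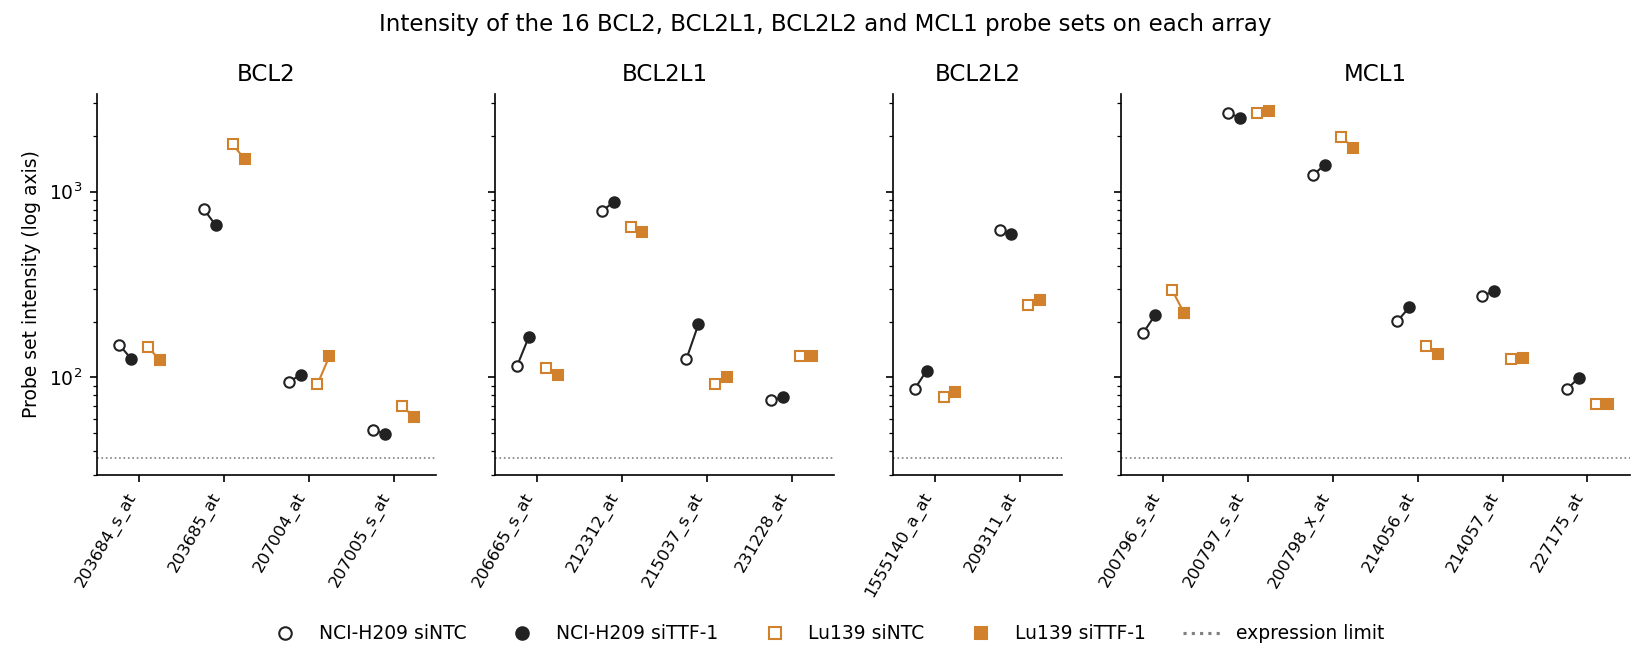
Intensity (log axis) of each of the 16 member probe sets on the 4 arrays, with open symbols for siNTC, filled symbols for siTTF-1, circles for NCI-H209 and squares for Lu139; each point is 1 array. The BCL2 probe set 203685_at goes from 804 to 660 and from 1797 to 1501, while those of BCL2L1, BCL2L2 and MCL1 mostly tilt differently in the lines.

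Because TTF-1 binds DNA at sites with a CAAG core, the windows just before the annotated starts were searched for these letters on both strands. The search covered BCL2 and BCL2L1, whose windows are shown, while those of BCL2L2 and MCL1 were not searched here. Each is the 250 bases before a start in RefSeq (GRCh38.p14), written 5′ to 3′ on the strand of the gene, with CAAG or its reverse complement CTTG in capitals. The BCL2 window is chr18:63319770-63320019 on the minus strand and lies inside the span of the gene in the RefSeq gene table, whose longest transcript starts further out. The BCL2L1 window is chr20:31723964-31724213, also on the minus strand, and is the outer of 2 starts.
BCL2: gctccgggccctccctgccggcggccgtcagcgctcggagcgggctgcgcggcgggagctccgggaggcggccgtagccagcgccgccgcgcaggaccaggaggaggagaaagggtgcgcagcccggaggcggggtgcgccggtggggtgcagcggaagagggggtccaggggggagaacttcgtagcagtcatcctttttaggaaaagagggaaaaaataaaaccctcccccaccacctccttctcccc
BCL2L1: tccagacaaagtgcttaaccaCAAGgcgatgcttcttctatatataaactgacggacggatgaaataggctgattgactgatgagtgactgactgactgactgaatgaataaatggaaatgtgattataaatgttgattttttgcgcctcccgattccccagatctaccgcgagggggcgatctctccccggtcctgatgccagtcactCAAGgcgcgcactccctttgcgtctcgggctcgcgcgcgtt
BCL2 had 0 matches and BCL2L1 had 2, while the inner BCL2L1 window had 3. Of 35116 RefSeq windows of the same length, 80.9% held at least 1 CAAG on either strand. The longer form TCAAGTG, which contains the CAAG core, was in 0 of the 3 windows and in 2.06% of all windows. The BCL2 window was 70% G or C, above the share in 79.2% of windows. A match in these letters is a description and not a binding site, and binding was not measured.

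BCL2L1 encodes BCL-XL and, by alternative splicing, the shorter pro-apoptotic BCL-XS. Its brightest probe set, 212312_at, went from 783 to 880 in NCI-H209 and from 643 to 609 in Lu139. The siTTF-1 array was above its control in NCI-H209 and below it in Lu139, with log2 fold changes of 0.17 and -0.07. The mean of 0.05 (SD 0.17, n = 2 lines) had a limma adjusted p of 0.870 and a 95% confidence interval of -0.22 to 0.31.

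Larger values in NCI-H209 came from dimmer BCL2L1 probe sets. On 215037_s_at the intensity was 126 and 193 in NCI-H209, 153% of control, and 92.5 and 101 in Lu139, 109% of control. Its log2 fold change of 0.55 in NCI-H209 was the largest of any member in either line, above that of 98.6% of probe sets over the limit there. On 206665_s_at, paired by the annotation with the reference of the BCL-XS transcript, the intensity went from 115 to 165 in NCI-H209 but from 112 to 103 in Lu139. The siTTF-1 array of NCI-H209 was thus the highest of the 4 on both of these probe sets. Across lines the limma adjusted p was 0.313 for 215037_s_at (mean 0.33, SD 0.31, n = 2 lines) and 0.586 for 206665_s_at (mean 0.18, SD 0.40). The fourth, 231228_at, was at 75.1 and 78.2 in NCI-H209 and 130 on both Lu139 arrays. With 1 array per siRNA in each line, a difference of the change between the lines could not be tested.

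BCL2L2 encodes BCL-W, a survival protein best known from testis and neurons. Its brighter probe set, 209311_at, went from 625 to 593 in NCI-H209 and from 245 to 260 in Lu139. Both NCI-H209 arrays lay above both Lu139 arrays, and the log2 fold changes after siTTF-1 were -0.07 and then 0.08 (mean 0.00, SD 0.11, n = 2 lines; limma 95% confidence interval -0.26 to 0.26, adjusted p = 0.998). The dimmer 1555140_a_at went from 86.9 to 109 in NCI-H209 and from 78.1 to 83.6 in Lu139, higher after siTTF-1 in each line, with a limma adjusted p of 0.448. One more probe set, 201544_x_at, is annotated to BCL2L2, its neighbour PABPN1 and their read-through transcript, so it names no gene and entered no count. It went from 5244 to 5041 in NCI-H209 and from 5027 to 5248 in Lu139.

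MCL1 captures BIM, NOXA and BAK, and its level is set largely by protein turnover. The brightest probe set, 200797_s_at, went from 2661 to 2503 in NCI-H209 and from 2647 to 2725 in Lu139, so the 4 arrays lay close together. Its log2 fold changes were -0.09 and then 0.04, which averages to -0.02 (SD 0.09, n = 2 lines), with a limma 95% confidence interval of -0.21 to 0.17 and an adjusted p of 0.908. That interval is the narrowest among the brightest probe sets of the 4 genes.

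The next brightest MCL1 probe sets had opposite signs in the lines. On 200798_x_at the intensity went from 1223 to 1394 in NCI-H209 and from 1964 to 1724 in Lu139, with log2 fold changes of 0.19 and -0.19. The suffix _x_at marks probes that may also read other transcripts. On 200796_s_at it went from 174 to 216 in NCI-H209 and from 297 to 224 in Lu139, where the log2 fold change of -0.38 was the lowest of any member in either line. The pattern of higher in NCI-H209 and lower in Lu139 was shared by 214056_at (201 and 238, then 148 and 133). It was not seen on 214057_at (275 and 291, then 126 and 128) or 227175_at (86.4 and 99.8, then 71.6 on both arrays). Limma adjusted p-values for these 5 MCL1 probe sets ranged from 0.703 for 227175_at to 1.0 for 200798_x_at. As the mean of its 6 probe sets, MCL1 had log2 fold changes of 0.14 and -0.11.

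Levels were then compared between the lines, as Lu139 over NCI-H209 with both siRNAs together. BCL2 was higher in Lu139 and BCL2L2 lower, each on its brightest probe set, and this held with the values as deposited and after quantile normalization over the 4 arrays. The log2 difference of BCL2 on 203685_at was 1.15, a 2.22-fold higher level (limma 95% confidence interval 0.93 to 1.38, adjusted p = 4.0e-05), or 1.62 after quantile normalization. Both siRNA conditions gave it, at 1.14 between the control arrays and 1.16 between the siTTF-1 arrays. BCL2L2 on 209311_at was 2.32-fold lower in Lu139, a log2 difference of -1.21 (limma 95% confidence interval -1.47 to -0.95, adjusted p = 6.6e-05), or -0.76 after quantile normalization. The dimmer BCL2L2 probe set, 1555140_a_at, had -0.22 (limma adjusted p = 0.0941, not called) as deposited and 0.036 after quantile normalization.

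Such differences were common between the lines and depended on the scaling. With the values as deposited, limma called 68.0% of all probe sets tested, 48.8% lower and 19.2% higher in Lu139, and the median difference over all of them was -0.25. Of the 16 member probe sets, 6 were called lower and 4 higher. After quantile normalization over the 4 arrays the median was 0.05, the background was 31.2% lower and 35.7% higher, and 2 members were called lower and 8 higher. Lower calls made up 71.7% of all calls with deposited values, 59.0% with arrays centred on their medians and 46.6% after quantile normalization. Both arrays of a line are the same line and received different siRNAs. The spread behind these p-values is therefore how far the siRNA change differed between the lines, moderated by that of other probe sets. These p-values do not cover a spread between replicate cultures of a line with the same siRNA.

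The other BCL2 probe sets had smaller gaps between the lines. The line difference was 0.27 on 207005_s_at (limma adjusted p = 0.0341, or 0.0537 with no expression limit), 0.13 on 207004_at and -0.03 on 203684_s_at, and after quantile normalization these were 0.46, 0.43 and 0.32. Those of BCL2L1 disagreed. On 231228_at Lu139 was higher by 0.64 (limma adjusted p = 9.3e-04; 0.94 after quantile normalization), whereas 215037_s_at was lower by a difference of -0.60 (adjusted p = 0.00508), which became -0.28 and lost its call (adjusted p = 0.0853). The brightest, 212312_at, had -0.40 (limma adjusted p = 0.0155) with deposited values and 0.06 (adjusted p = 0.632) after quantile normalization, so its direction followed the scaling.

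MCL1 had probe sets called in both directions, whichever scaling was used. With the values as deposited 200798_x_at was higher in Lu139 by 0.49 (limma adjusted p = 0.00652), while 214057_at had -1.05 (adjusted p = 1.1e-04), a 2.07-fold lower level. After quantile normalization they had 0.96 and -0.65. The brightest, 200797_s_at, had 0.06 (limma adjusted p = 0.545) with deposited values and 0.50 (adjusted p = 5.8e-04) after quantile normalization. No direction between the lines can therefore be given for MCL1 as a gene from these arrays.

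**Figure D3:**
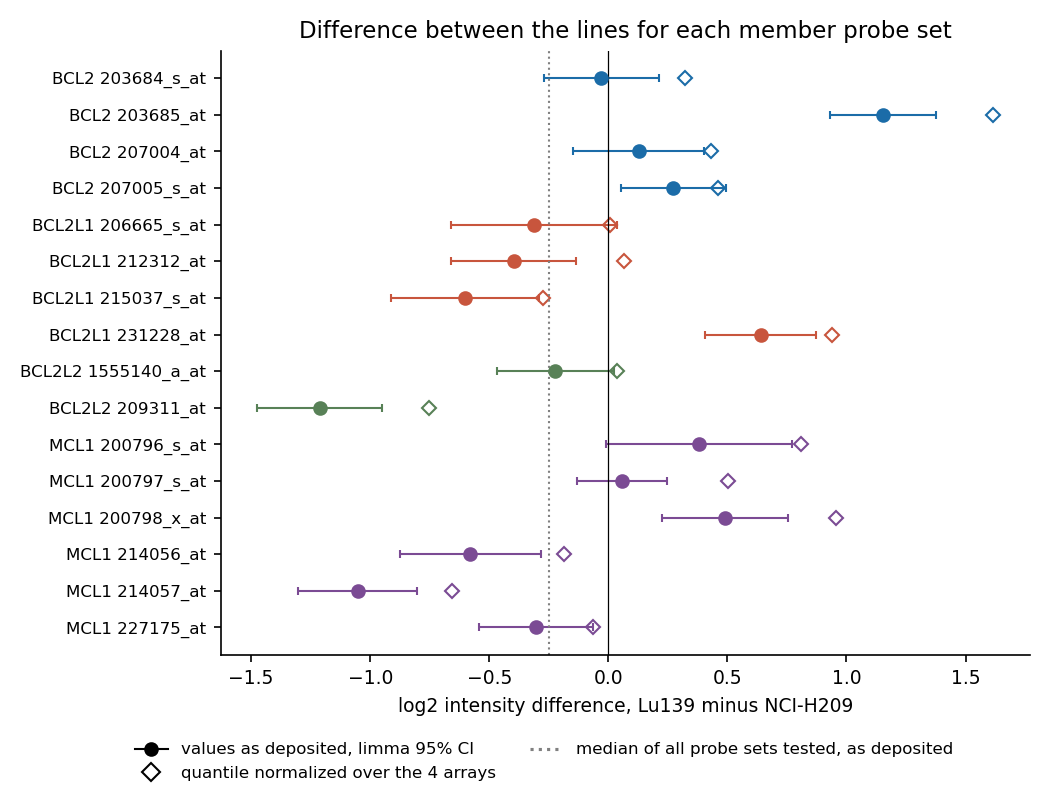
Log2 intensity of Lu139 minus NCI-H209 for each of the 16 member probe sets. Filled circles with bars are limma estimates with 95% confidence intervals over the 4 arrays as deposited, open diamonds are estimates after quantile normalization over the 4 arrays, and the dotted line is the median of all probe sets tested (-0.25). BCL2 203685_at lies at 1.15 and BCL2L2 209311_at at -1.21, and the MCL1 probe sets fall on both sides of 0.

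The partners of these survival genes were read from lists, with 1 probe set per gene, the brightest. Limma called 0 genes of any list for the siTTF-1 effect, against the 0% background above. The other anti-apoptotic members, BCL2A1 and BCL2L10, were under the expression limit in both lines. Of the effectors, which form the pore in the outer membrane, BAK1 went from 341 to 452 in NCI-H209 and from 186 to 206 in Lu139, and BAX had log2 fold changes of -0.14 and -0.04. BOK had 0.99 in NCI-H209, from 77.1 to 171, and was under the limit in Lu139 at 29.7 and 32.4. Its other probe set had -0.07 and 0.23.

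BH3-only genes, whose proteins are captured by various anti-apoptotic members, had medians of 0.45 (NCI-H209) and 0.10 (Lu139) for the log2 fold change over 7 genes. Over all probe sets tested the medians were 0.01 and 0.02. Of the 7 genes, 4 were higher and 1 lower in both lines, namely BCL2L11, PMAIP1, HRK and BMF against BAD. The shares over all probe sets above the limit in both lines, 35.5% higher and 28.3% lower in both, are the background for this and the lists that follow. The BAD value in NCI-H209, -0.03, was 0.02 after quantile normalization, and 1 of its 3 probe sets was lower there. BCL2L11, which encodes BIM, went from 924 to 1490 in NCI-H209 and from 405 to 514 in Lu139, with 7 of its 7 probe sets higher in both lines and a limma adjusted p of 0.169. HRK had log2 fold changes of 0.45 and 0.31 (limma adjusted p = 0.194). BIK was the BH3-only gene with the widest gap between the lines, at 2419 and 3015 in NCI-H209 against 101 and 96.0 in Lu139.

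Genes that control MCL1 protein had mixed values. FBXW7, a ubiquitin ligase subunit for MCL1, had -0.59 and -0.20 on the log2 scale (limma adjusted p = 0.221). Of its 4 probe sets, 3 were lower in each line and 1 was higher in both. HUWE1, another MCL1 ligase, had 0.14 and 0.08, and the deubiquitinase USP9X had 0.01 and -0.17, the first of which changed sign with arrays centred on their medians (-0.01). Both lines had lower values for 2 of 5 genes in this list (FBXW7 and TRIM17) and higher values for HUWE1. TRIM17 was under the limit in Lu139 at 32.5 and 29.4, and of 5 HUWE1 probe sets 2 were higher in both lines and 2 lower in each line. Downstream of the mitochondrion, 3 of 6 genes were lower in both lines (APAF1, HTRA2 and XIAP) and 2 higher (CASP9 and DIABLO). The CASP9 value in Lu139, 0.03, was 0.00 with arrays centred on their medians. Of 2 HTRA2 probe sets, 2 were lower in NCI-H209 and 1 in Lu139. APAF1, the scaffold of the apoptosome, had -0.41 and -0.20 on its brightest probe set, the only 1 of its 3 that was lower in either line, and 1 was higher in both. XIAP, an inhibitor of caspases, had -0.38 and -0.16, and of its 7 probe sets NCI-H209 had 7 lower, Lu139 5. Of the VDAC and BNIP genes, a list labelled mitochondrial channel partners, 3 of 6 were lower in both lines (BNIP1, BNIP3 and BNIP3L). A further 2 were higher (VDAC1 and BNIP2, the latter -0.01 in Lu139 with centred arrays). BNIP3, a mitophagy receptor, went from 3786 to 1977 in NCI-H209 and from 1681 to 1390 in Lu139. BBC3 is not analysed here.

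**Figure D4:**
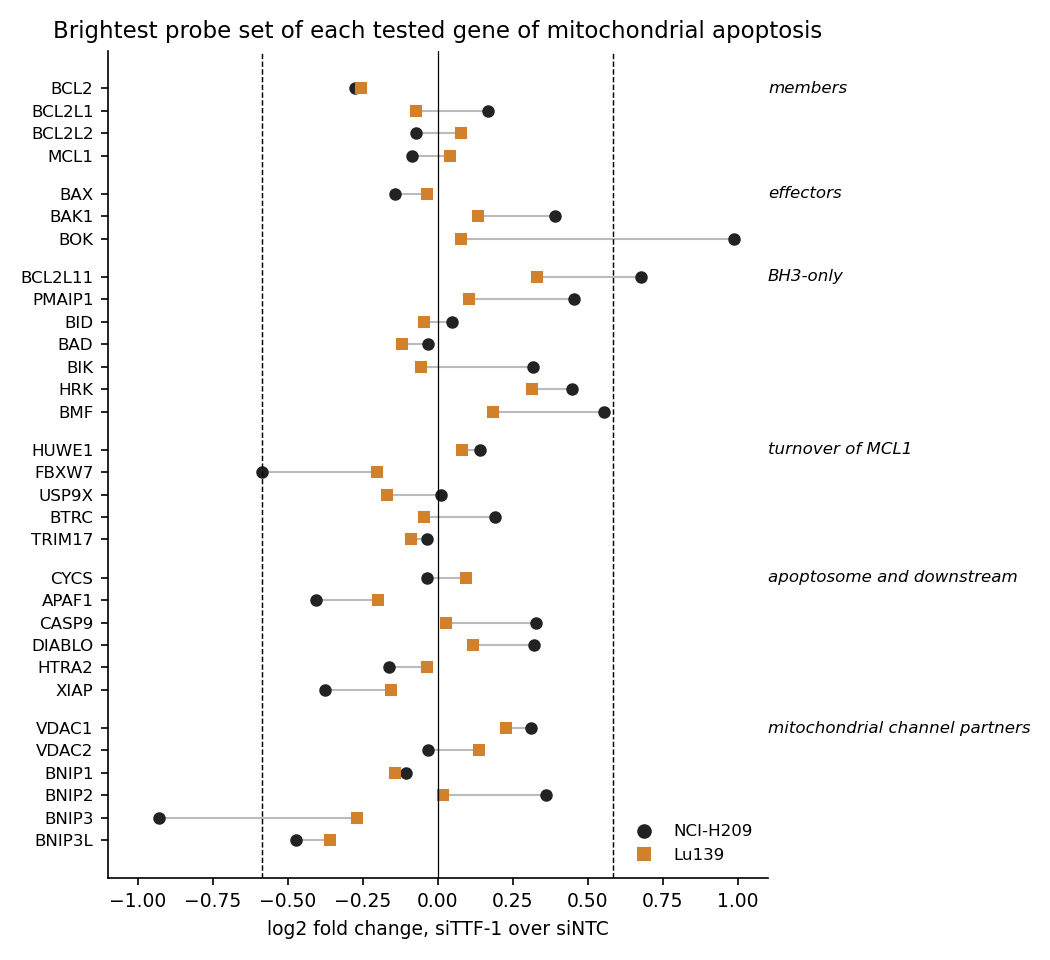
Log2 fold change of siTTF-1 over siNTC for the brightest probe set of the 4 member genes and of each tested gene of the lists, with black circles for NCI-H209 and orange squares for Lu139; each point is 1 pair of arrays and dashed lines mark 1.5-fold. BCL2 lies at -0.28 and -0.26, BCL2L11 at 0.68 and 0.33, and BNIP3 at -0.93 and -0.27.

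Each gene was represented by its brightest probe set, with the values as deposited. The genes whose profile over the 4 arrays was most like that of each member were found by the root mean square difference between log2 values centred on their own mean, among 14553 genes above the limit. For BCL2 these were MLXIP (0.0066), SETMAR (0.026) and CREG1 (0.029), and 52 genes lay within 0.1. MLXIP had log2 fold changes of -0.28 and -0.27 and a line difference of 1.16. For BCL2L1 they were PAK4, GPHA2 and COLCA1, and 1122 genes lay within 0.1. For BCL2L2 they were GPR143, MPZL2 and DENND11, with 535 genes within 0.1. For MCL1 they were CELA3B, NDUFA5 and ZNHIT2, and 1712 genes lay within 0.1. Its brightest probe set, 200797_s_at, was nearly flat as deposited, which other MCL1 probe sets were not. With 4 arrays, close profiles are frequent and single out no gene.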

How the data were processed

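Per the labels' protocols, column-purified total RNA was turned into biotinylated cRNA for Affymetrix arrays. The authors deposited 1 linear intensity per probe set and array, from 3.03 to 26148. The submitters' processing notes name Affymetrix Expression Console, and the sources used here give neither its version nor the summarisation or normalization. Exactly equal intensities occurred for 2414 probe sets between both NCI-H209 arrays and for 2206 between both Lu139 arrays, against 0 for any pair across lines, so the lines may have been scaled separately.

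Of 54675 probe sets, 62 array controls were left out. The rest had 1 symbol (41091), several (1801) or none (11721) in the platform annotation, and 41043 symbols were updated through RefSeq (GRCh38.p14). Expression was log2(intensity + 18.7), the 25th percentile as pseudocount, and probe sets with a mean over the 4 arrays above the 40th percentile (5.80) were tested. Limma 3.58.1 in R 4.3.3 fitted line and siRNA with a trend of variance on intensity (1 residual and 5.97 prior degrees of freedom), two-sided, with Benjamini-Hochberg adjustment. The fit was tested on simulated data. Differences within a line have no test. The small number of arrays limits precision. Named genes were all member probe sets, NKX2-1, the listed genes and the 3 nearest profiles per member. The members and lists were chosen with earlier results of these data known. Alternatives changed the pseudocount, the limit, the normalization, the variance model, the line term and the summary per gene. Planned protein sequences were not used here. Figures used matplotlib 3.10.9.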

Additional observations from a re-analysis of the deposited data

Results flagged for a closer look

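In 8 of the 16 member probe sets the siTTF-1 effect had opposite signs in the 2 lines, each line having 1 array per siRNA, and the differences were not tested. The log2 fold change in NCI-H209 minus that in Lu139 was 0.67 for MCL1 200796_s_at, 0.37 for MCL1 200798_x_at, 0.36 for MCL1 214056_at and -0.13 for MCL1 200797_s_at. For BCL2L1 it was 0.57 on 206665_s_at, 0.24 on 212312_at and 0.052 on 231228_at, where the Lu139 value of -0.01 became 0.03 when the arrays were quantile normalized, together or by line. For BCL2L2 209311_at it was -0.15. As background, 32.6% of probe sets above the limit in both lines had opposite signs.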

How the results depend on the processing

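Under every alternative run, limma called 0 of 16 member probe sets for the siTTF-1 effect, or of those above a stricter limit. Within a line 0 reached 1.5-fold, a log2 value of 0.585, and every run added a pseudocount. With a halved pseudocount BCL2L1 215037_s_at had 0.579 in NCI-H209. The smallest adjusted p of a member was 0.215, with arrays centred on their medians, and 1 in the fit with no replicate block (no line term). The sign of near-zero siTTF-1 effects changed for BCL2L1 231228_at (-0.0035), BCL2L2 209311_at (-0.024) and MCL1 200798_x_at (-0.024) with centred arrays. It also changed for 209311_at (-0.00053) and 200798_x_at (-0.00018) with a doubled pseudocount, and for MCL1 as the mean of its probe sets (0.018, against -0.02 on 200797_s_at).

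For Lu139 over NCI-H209, quantile normalization over the 4 arrays gave 10225 probe sets lower and 11711 higher (15977 and 6296 as deposited), with 2 members lower and 8 higher. It turned BCL2 203684_s_at to 0.32, BCL2L1 206665_s_at to 0.0061, BCL2L1 212312_at to 0.065 and BCL2L2 1555140_a_at to 0.036. Centred arrays turned 203684_s_at to 0.13, and the mean of the MCL1 probe sets had -0.17. The shift of the median over all probe sets, from -0.25 to 0.05 and -0.08, goes with these turns; the cause was not tested. BCL2 203685_at, BCL2L1 231228_at, BCL2L2 209311_at, MCL1 200798_x_at and MCL1 214057_at kept direction and call under every alternative run. With no expression limit the limma calls of BCL2 207005_s_at (adjusted p = 0.0537) and MCL1 227175_at (0.0503) were lost. That of 227175_at was also lost after quantile normalization over the 4 arrays (adjusted p = 0.595) and with centred arrays (0.252). Quantile normalization also removed that of MCL1 214056_at (0.219), and centred arrays that of BCL2L1 212312_at (0.0996). Both settings gave a call to MCL1 200796_s_at and 200797_s_at, and quantile normalization also to BCL2 203684_s_at and 207004_at. The line term pairs both siRNAs within each line; the labels give no other replicate numbers. Leaving out a line leaves the value of the other, with no test. Low signal over background limits the probe sets near the limit, such as BCL2 207005_s_at.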
